A study of Mus musculus with 20 samples.

Results

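Complement components and receptors were followed as 9 genes, C1qa, C1qb, C1qc, C3, C4b, Cfb, Cfp, C3ar1 and C5ar1, chosen by symbol from the 24421 genes counted. All 9 were present in each of the 20 count files, and all 9 were among the 13960 genes that passed the filter on low counts. The libraries were made from total RNA of macrophages of C57BL/6JRj mice, 4 from each of 5 populations. Dura macrophages were split by MHC class II into a high group, called MHC II-high dura here, and a low group, called MHC II-low dura, whose titles read "int" while the cell type label reads "lo". The other 3 populations were choroid plexus macrophages, peritoneal macrophages and microglia, the resident macrophages of the brain tissue itself. No treatment, age or way of isolating the cells is given in the sources used here, nor whether replicates come from separate animals. What the p-values weigh is thus only how far these libraries scatter, which may be technical. The design sets macrophages of the brain's borders beside microglia and beside macrophages of the body cavity.

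Complement is a cascade of plasma and tissue proteins that tags targets for uptake by phagocytes and can end in membrane pores. C1q, a complex of A, B and C chains, binds immune complexes, dying cells or synapses and starts the classical pathway, which cuts C4 and C2 to form a C3 convertase. In the alternative pathway factor B (Cfb) takes the place of C2 in that enzyme and properdin (Cfp) stabilises it, and the small fragments of C3 and C5 act on the receptors encoded by C3ar1 and C5ar1. Macrophages are a main source of C1q, and in the brain microglial C1q and complement receptors are known for their part in synapse removal.

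All 9 genes matched the GENCODE M21 annotation of the mouse genome (GRCm38, the assembly of mm10), and all 9 lie on the minus strand. The 3 C1q chains sit side by side on chromosome 4, C1qb at 136880129-136886187, C1qc at 136889804-136893065 and C1qa at 136895917-136898803. C4b (34728380-34743882) and Cfb (34856374-34862518) share a stretch of chromosome 17 with C3 farther along (57203970-57228136). C5ar1 is at 16246743-16259540 of chromosome 7, C3ar1 at 122847138-122856161 of chromosome 6, and Cfp at 20925454-20931555 of chromosome X. The RefSeq promoter table (GRCm38.p6) held 6 of the 9 genes, and 3 of those had 250 bases before the start that are free of annotated exons. These 3 windows are shown for that reason. Their genes differ in range across the populations: the highest mean was 1.47-fold the lowest for C1qb, 166-fold for C3 and 6532-fold for Cfp. The windows are chr4:136886201-136886450, chr17:57228137-57228386 and chrX:20931556-20931805, each read on the minus strand from 5′ to 3′, with matches to the motifs named below in capitals:
C1qb: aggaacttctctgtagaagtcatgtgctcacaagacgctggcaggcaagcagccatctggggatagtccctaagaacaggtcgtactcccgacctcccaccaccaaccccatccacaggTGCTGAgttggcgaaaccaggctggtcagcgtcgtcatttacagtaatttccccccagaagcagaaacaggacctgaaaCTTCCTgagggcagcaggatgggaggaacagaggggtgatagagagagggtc
C3: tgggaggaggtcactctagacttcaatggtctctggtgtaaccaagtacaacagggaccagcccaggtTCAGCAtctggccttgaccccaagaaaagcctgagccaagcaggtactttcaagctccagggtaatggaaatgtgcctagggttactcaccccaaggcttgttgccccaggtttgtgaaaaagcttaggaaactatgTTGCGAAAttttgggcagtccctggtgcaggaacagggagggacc
Cfp: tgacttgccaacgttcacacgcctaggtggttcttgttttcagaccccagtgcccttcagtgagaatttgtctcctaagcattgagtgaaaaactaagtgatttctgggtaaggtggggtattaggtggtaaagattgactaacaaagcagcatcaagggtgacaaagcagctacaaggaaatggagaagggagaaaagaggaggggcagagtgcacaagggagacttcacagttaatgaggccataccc
The windows were searched on both strands for 7 motifs, and the share of all 32851 windows of the same length that hold each one was counted. The ETS motif of PU.1 and its relatives, searched as AGGAAG, was in 29.5% of windows. The MAF factor motif, searched as TGCTGA, was in 16.1%. The TATA box, searched as TATAAA, was in 12.4% of windows, the C/EBP motif, searched as TTGCNNAA, in 9.56%, and the STAT motif, searched as TTCNNNGAA, in 7.02%. The interferon-stimulated response element was in 2.98% and the NF-kB site in 1.41%. The C1qb window held 1 ETS match, 52 bases before the start and on the opposite strand, and 1 MAF match, 131 bases before it. The C3 window held 1 MAF match on the opposite strand (182 bases before the start) and 1 C/EBP match (45 bases before it). The Cfp window held no match, and no match overlapped another. These matches are a description of the letters and not of binding.

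Each library held 13383274 to 32611875 counts assigned to genes, and the 9 members together took 1.40 to 2.56% of them. Levels are given in CPM, gene counts scaled to a common library size with TMM factors, as mean ± SD with n = 4, and single values follow replicate order (1 to 4, or 1, 3, 4 and 5 for microglia). The labels were checked against marker lists. The sum of 10 microglia markers was 36532 to 48678 CPM in microglia against 390 to 12814 in the other populations, that of 8 large peritoneal macrophage markers was 9276 to 13836 in peritoneal macrophages against 1478 to 2392 elsewhere, and that of 8 border macrophage markers was 4899 to 16278 in the dura and choroid plexus groups against 216 to 2458 in the other 2. The sum of 5 MHC class II genes was 52637 to 59097 CPM in MHC II-high dura and 2099 to 2327 in MHC II-low dura. Microglia library 3 stood apart with 20595 CPM summed over 12 choroid plexus epithelium markers, against 68.0 to 724 in the other microglia, and microglia library 5 with 1586 CPM summed over 14 interferon response genes, against 205 to 260. Several named results that rest on these 2 libraries are given with and without them. Others are given only with them, among them the C1qb and C1qc differences from microglia and the counts of further complement genes. Immediate early and heat shock genes summed to 884 to 1152 CPM in peritoneal macrophages and to 25254 to 57358 in the other 4 populations, so every comparison with peritoneal macrophages also differs in these genes, and their part in the results was not tested. In such bulk libraries, fewer cells of a type and less RNA per cell cannot be told apart.

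Across the 10 pairwise comparisons the members differed by role: the C1q chains stayed within 2.13-fold, C3, C4b, Cfb and Cfp spanned ranges of 166-fold to 6532-fold between the highest and lowest population means, and both receptors stayed within 3.43-fold. A gene was called where edgeR's quasi-likelihood test over all genes gave an adjusted p under 0.05 and the change was at least 2-fold, and 46 of the 90 values (9 genes in 10 comparisons) were called. Between the dura populations 1 of 9 members was called, where 3.88% of all genes were; it was higher in MHC II-high dura (2.39% of all genes) and none was higher in MHC II-low dura (1.48%). MHC II-high dura differed from choroid plexus in 3 members (9.88% of all genes called), all higher in the dura (4% of all genes, against 5.87% higher in choroid plexus). It differed from peritoneal macrophages in 4 (29.2%), 1 higher in the dura (20.1%) and 3 higher in peritoneal macrophages (9.18%). MHC II-low dura differed from choroid plexus in 4 members (12.8% of all genes), all higher in the dura (4.18%, against 8.63% higher in choroid plexus), and from peritoneal macrophages in 6 (31.9%), 2 higher in the dura (20%) and 4 higher in peritoneal macrophages (11.9%). Choroid plexus differed from peritoneal macrophages in 7 members (36.7% of all genes), 3 higher in choroid plexus (24.1%) and 4 higher in peritoneal macrophages (12.6%). Every member called against microglia was lower in microglia. These were 6 members for MHC II-high dura (27.9% of all genes called, 15.7% higher in the dura and 12.2% in microglia), 5 for MHC II-low dura (26.5%, of which 13.8% and 12.7%), 6 for choroid plexus (19.2%, of which 12.1% and 7.11%) and 4 for peritoneal macrophages (44.6%, of which 18.9% and 25.7%). The members' shares lay above the background in each comparison except that between peritoneal macrophages and microglia, where 4 of 9 is close to it. With only 9 genes, chosen with earlier results of these data known, these shares cannot be read as an excess particular to the members. Between the dura groups the share rests on 1 gene. The median log2 fold change of the members ran from −0.13 (MHC II-high dura against choroid plexus) to 1.66 (MHC II-low dura against microglia), beside medians over all genes of −0.11 to 0.13. The comparisons share populations, so their counts are not independent of each other.

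**Figure D1:**
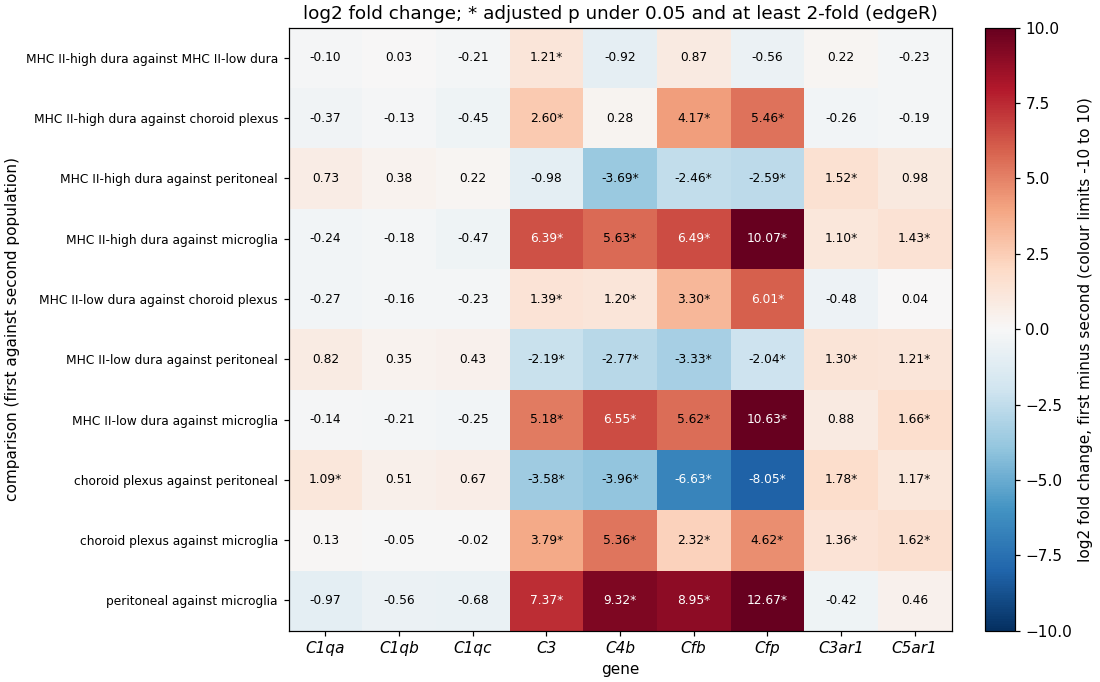
Log2 fold change (first population minus second, edgeR) of each member in the 10 comparisons; colour runs from −10 to 10 and an asterisk marks an adjusted p under 0.05 with at least a 2-fold change. The C1q columns are pale, C3, C4b, Cfb and Cfp carry the largest values, up to 12.67 for Cfp in peritoneal macrophages against microglia, and 1 C1q value of 30 has an asterisk.

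The C1q chains were abundant in every population. Together they took 0.877 to 1.62% of all gene counts in a library. C1qa had 3962, 3044, 3207 and 3053 CPM in MHC II-high dura, 3744, 3771, 3512 and 3162 in MHC II-low dura, 4046, 4041, 4533 and 4489 in choroid plexus, 4089, 3320, 4099 and 4177 in microglia, and 2103, 1844, 2021 and 2048 in peritoneal macrophages. Peritoneal libraries lay below all 16 others, and the other 4 populations overlapped in part. C1qa was 2.13-fold lower in peritoneal macrophages than in choroid plexus (log2 fold change 1.09 ± 0.10 SE, choroid plexus minus peritoneal, adjusted p = 2.02e-08), the 1 called C1q difference. Against microglia the peritoneal value was just under the 2-fold limit (−0.97 ± 0.10, adjusted p = 7.11e-08), and it passed that limit with RLE scaling (−1.02), the filter of 10 CPM (−1.03), DESeq2 (−1.02) or equal depth (−1.01), and without microglia library 3 (−1.08), peritoneal library 4 (−1.01) or choroid plexus library 2 or 3 (−1.01 each). Between neighbours in the order choroid plexus, microglia, MHC II-low dura and MHC II-high dura, C1qa did not pass the test (adjusted p 0.256 to 0.624). The ends of that order did not overlap. MHC II-high dura was below choroid plexus by 0.37 on the log2 scale, under the 2-fold limit. The adjusted p was 0.00503 in the fit without microglia library 3 and 0.017 in that without library 5.

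C1qb averaged 5746 ± 563 CPM in microglia, 5554 ± 427 in choroid plexus, 5077 ± 752 in MHC II-high dura, 4973 ± 405 in MHC II-low dura and 3902 ± 289 in peritoneal macrophages. C1qc averaged 5365 ± 529 in microglia, 5294 ± 305 in choroid plexus, 4500 ± 438 in MHC II-low dura, 3882 ± 571 in MHC II-high dura and 3338 ± 64.1 in peritoneal macrophages. For both chains the peritoneal libraries were again below all others, but no difference reached 2-fold, the largest being −0.56 ± 0.11 for C1qb and −0.68 ± 0.11 for C1qc in peritoneal macrophages against microglia. Smaller differences did pass on the adjusted p alone: C1qc was lower in MHC II-high dura than in choroid plexus by 0.45 ± 0.11 on the log2 scale (adjusted p = 0.00476) and than in microglia by 0.47 ± 0.11 (adjusted p = 0.00102). Per kilobase of exon, C1qb was the most abundant chain in every population, with 5281 ± 517 CPM per kilobase in microglia against 3770 ± 387 for C1qa and 2779 ± 274 for C1qc.

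The proportions of the 3 chains were tight within a population and differed between populations. The count ratio of C1qb to C1qa was 1.53 ± 0.03 in MHC II-high dura, 1.40 ± 0.02 in MHC II-low dura, 1.30 ± 0.02 in choroid plexus, 1.47 ± 0.02 in microglia and 1.95 ± 0.05 in peritoneal macrophages. The ranges of the 5 populations did not overlap: the lowest peritoneal ratio was 1.90 and the highest elsewhere 1.56. For C1qc over C1qa the ratio was 1.17 ± 0.02, 1.27 ± 0.03, 1.24 ± 0.01, 1.37 ± 0.02 and 1.67 ± 0.08 in the same order, and the MHC II-low dura and choroid plexus ranges overlapped (1.22 to 1.30 and 1.23 to 1.26). Scaling between libraries cancels in these ratios. They were described and not tested.

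**Figure D2:**
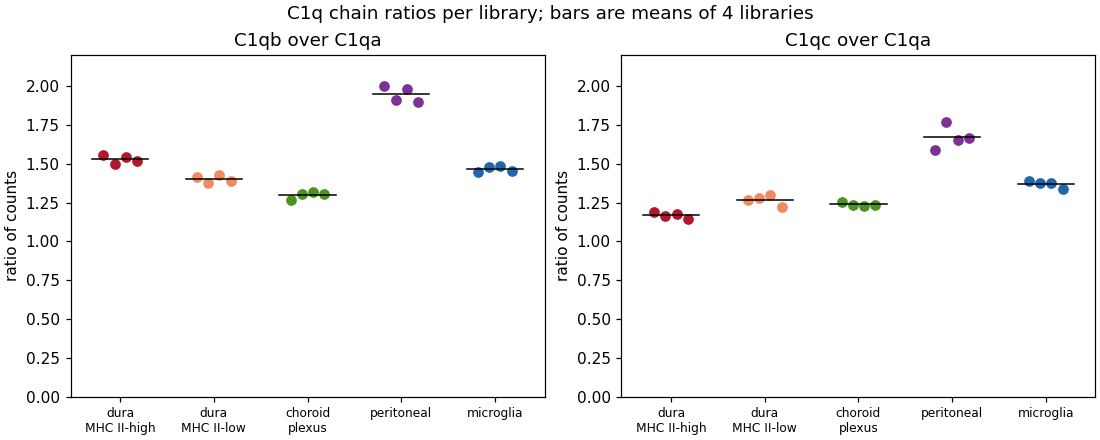
Ratio of counts of C1qb (left) and C1qc (right) to those of C1qa, 1 point per library and a bar at the mean of 4. Peritoneal macrophages sit highest in both panels, at 1.95 and 1.67, and the points within a population lie close together.

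C4b encodes complement C4, the first substrate of the activated classical pathway. It had 8673, 8116, 4009 and 10901 CPM in peritoneal macrophages, 848, 540, 422 and 648 in MHC II-high dura, 1561, 930, 925 and 1236 in MHC II-low dura, 474, 447, 584 and 525 in choroid plexus, and 7.96, 4.69, 8.57 and 28.5 in microglia. Peritoneal libraries were above all others and microglia below all others, while MHC II-high dura and choroid plexus overlapped. Peritoneal macrophages exceeded MHC II-low dura 6.81-fold (adjusted p = 3.41e-05), and microglia were 41.0-fold below choroid plexus (adjusted p = 1.19e-07). Microglia library 5 raises the microglial mean of 12.4 ± 10.8 CPM, and without it the mean is 7.34 and the log2 fold change of choroid plexus over microglia goes from 5.36 to 6.09. For MHC II-low dura over choroid plexus (2.29-fold, adjusted p = 0.0379) the call was lost with no filter on low counts (log2 fold change 1.22, adjusted p = 0.0527), without MHC II-low dura library 1 (log2 fold change 1.02, adjusted p = 0.103) or 4 (1.16, 0.0728) and without any 1 choroid plexus library (1.16 to 1.29, adjusted p 0.0603 to 0.0835). The near-identical copy C4a averaged at most 2.19 CPM. Its longest transcript is identical to that of C4b at 96.14% of 5367 aligned bases, and 35.18% of all 50-base windows of C4b occur in it letter for letter, so reads from these windows cannot be told apart. Summing the pair changed no C4b call.

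C3, the protein on which all activation routes converge, had 407, 362, 153 and 431 CPM in peritoneal macrophages, 223, 167, 143 and 152 in MHC II-high dura, 96.6, 58.4, 58.9 and 82.6 in MHC II-low dura, 33.2, 26.4, 25.6 and 27.8 in choroid plexus, and 3.39, 1.17, 2.26 and 1.32 in microglia. These groups form steps that overlap only at the top, where peritoneal library 3 falls among the MHC II-high dura libraries. Each step below that was called: 2.31-fold from MHC II-high to MHC II-low dura (1.21 ± 0.28, adjusted p = 0.00878), 2.62-fold from there to choroid plexus (adjusted p = 0.00153), and 13.8-fold from choroid plexus to microglia (adjusted p = 8.03e-08). The top step was just under 2-fold (−0.98 ± 0.28 for MHC II-high dura minus peritoneal, adjusted p = 0.00663) and it passed that limit under several other settings (−1.01 to −1.04 with other scalings, no filter on low counts, DESeq2, only the 2 groups or equal depth) and when 1 of several libraries was left out, farthest without peritoneal library 3 (−1.23) or MHC II-high dura library 1 (−1.16).

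Between the dura groups, 7 of the 9 members were of one sign in each of the 4 same-numbered pairs of libraries: C3, Cfb and C3ar1 were higher in MHC II-high dura, and C4b, Cfp, C5ar1 and C1qc were lower. The share of all genes of one sign in these pairs was not counted, so 7 of 9 cannot be read as particular to the members. Same-numbered dura libraries deviate together, so the replicate number was also used as a block. In the fit of all libraries the block moved the adjusted p from 0.00878 to 0.000479 for C3 and from 0.177 to 0.00699 for C4b (log2 fold change −0.93), and gave 0.0182 for Cfp, 0.115 for Cfb, 0.244 for C1qc, 0.268 for C5ar1 and 0.3 for C3ar1. Replicate number 5 occurs only in microglia, so this block also fits microglia library 5 exactly. With that library left out and no block, the adjusted p for C4b was 0.0344 (log2 fold change −0.92). The change for C4b is thus not due to the pairing of dura libraries alone. In a blocked fit of the dura libraries alone the adjusted p was 1.97e-06 for C3, 4.21e-07 for C4b, 0.000228 for Cfb (0.83), 2.16e-05 for Cfp (−0.56), 0.00626 for C3ar1 (0.21), 0.0137 for C5ar1 (−0.24) and 0.0191 for C1qc (−0.23). Of these, C3 alone reached 2-fold, in each fit. In the dura libraries alone 593 of all genes were called with the 2-fold limit, and how many passed on the adjusted p alone was not counted. The sum of 7 monocyte markers was 1086 to 1285 CPM in MHC II-high dura and 87.2 to 151 in MHC II-low dura. Nearly all of it was Ccr2 (1132 ± 87.9 and 106 ± 19.6 CPM), while Ly6c2 averaged 1.65 ± 1.44 and 1.70 ± 1.48 CPM, and no marker of the list was at 0 in all libraries of either group. The part of such cells in the dura differences was not tested.

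Cfb, the protease subunit of the alternative C3 convertase, had 1746, 654, 394 and 1429 CPM in peritoneal macrophages, 377, 89.0, 109 and 193 in MHC II-high dura, 166, 40.5, 73.3 and 140 in MHC II-low dura, 9.46, 7.32, 12.5 and 13.3 in choroid plexus, and 3.51, 1.61, 1.22 and 2.25 in microglia. The dura groups overlapped, and the other populations were separate from them and from each other. Peritoneal macrophages exceeded MHC II-high dura 5.49-fold (adjusted p = 0.00131), and MHC II-low dura exceeded choroid plexus 9.87-fold (adjusted p = 0.000561). Choroid plexus over microglia was 4.98-fold (2.32 ± 0.66, adjusted p = 0.00946), a call that was lost in limma voom (adjusted p = 0.337) and without microglia libraries 3 and 5 (2.11, adjusted p = 0.082).

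The neighbouring gene C2 encodes the classical-pathway counterpart of factor B, and it was distributed differently. C2 averaged 56.6 ± 14.5 CPM in MHC II-high dura, 208 ± 37.7 in MHC II-low dura, 152 ± 9.79 in choroid plexus, 1.95 ± 1.34 in peritoneal macrophages and 1.01 ± 0.53 in microglia. The count ratio of Cfb to C2 was therefore 570 ± 246 in peritoneal macrophages, 3.20 ± 1.44 in MHC II-high dura, 0.482 ± 0.206 in MHC II-low dura and 0.0695 ± 0.0149 in choroid plexus, with no overlap between these 4 groups. C2 was higher in MHC II-low than in MHC II-high dura (log2 fold change −1.88 ± 0.29, high minus low, adjusted p = 0.000298), where Cfb was not called. In GENCODE M21 a model named Gm20547 covers 79.5% of the exon length of Cfb on the same strand, and Gm20547 with a gene on the other strand covers 46.9% of that of C2. How the authors' annotation treated these reads is not given in the sources used here. With Cfb and C2 summed, the calls against choroid plexus were lost for MHC II-high dura (0.61, adjusted p = 0.314) and MHC II-low dura (0.94, adjusted p = 0.113), and choroid plexus over microglia grew to 5.69.

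**Figure D3:**
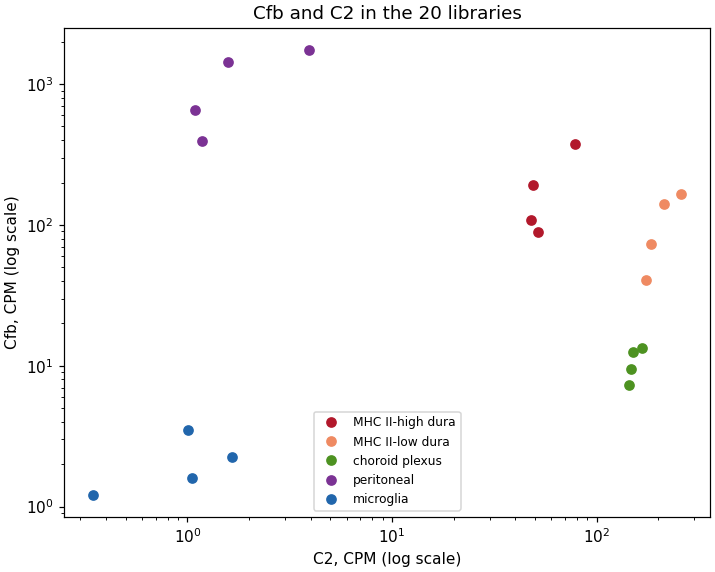
Cfb against C2 in the 20 libraries, both in CPM on log axes, coloured by population. Peritoneal libraries lie at high Cfb and low C2, choroid plexus libraries at low Cfb and high C2, and microglia are low in both.

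Cfb varied between libraries of a population, with an SD of 131 CPM on a mean of 192 CPM in MHC II-high dura. In the dura and choroid plexus groups the libraries fell in the order of their interferon response sums, a pattern picked out after the values were seen. The summed level of 14 interferon response genes was 4659, 1491, 2862 and 2960 CPM in MHC II-high dura, 4143, 1678, 2893 and 3028 in MHC II-low dura, and 1961, 1898, 2074 and 2396 in choroid plexus. In each of these 3 groups the ranks of Cfb and of the sum were identical from 1 to 4. Both dura groups had the same order of replicates, and their same-numbered libraries deviate together, so they are not separate instances of the match. In peritoneal macrophages (2242, 464, 542 and 1920 CPM) ranks 1 and 2 were shared and ranks 3 and 4 were exchanged. In microglia the ranks differed: library 5 held 1586 CPM of the sum and 2.25 CPM of Cfb, the second of 4. Ranked in the same way, C3 matched the order of the sum in MHC II-low dura alone and C4b in microglia alone. C4b also shared ranks 1 and 2 with the sum in both dura groups. With 4 libraries a group no correlation is given, and the part of the interferon response in the differences in Cfb was not tested. Peritoneal macrophages had the highest Cfb of the populations. Peritoneal libraries 2 and 3 had interferon sums below those of every MHC II-high dura library (464 and 542 CPM). Libraries 1 and 4 (2242 and 1920 CPM) lay within the MHC II-high dura range, and they had the higher Cfb of the peritoneal libraries (1746 and 1429 CPM). What sets this difference between populations was not tested.

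**Figure D4:**
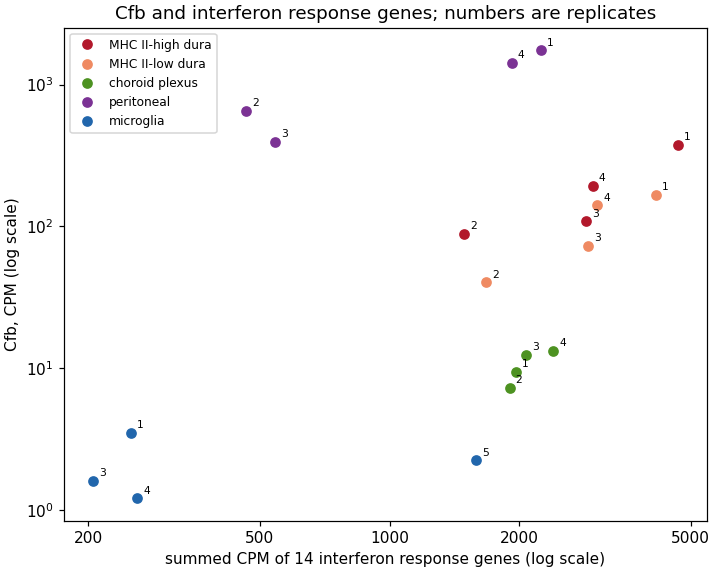
Cfb in CPM against the summed CPM of 14 interferon response genes, both on log axes, 1 point per library with its replicate number. Within each dura group and choroid plexus the points rise from left to right, and the populations lie at different heights, from 1.22 CPM of Cfb in microglia to 1746 in peritoneal macrophages.

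Cfp, which encodes properdin, had the widest range of the 9 genes. It had 2690, 3087, 2751 and 2924 CPM in peritoneal macrophages, 481, 464, 544 and 408 in MHC II-high dura, 622, 706, 870 and 592 in MHC II-low dura, and 13.2, 7.78, 11.4 and 10.8 in choroid plexus. Microglia had 10, 7, 4 and 7 counts, or 0.627, 0.432, 0.232 and 0.463 CPM. No 2 of the 5 populations overlapped. Peritoneal macrophages exceeded MHC II-low dura 4.10-fold (adjusted p = 5.61e-10), MHC II-high dura exceeded choroid plexus 43.9-fold (adjusted p = 8.13e-14), and choroid plexus exceeded microglia 24.5-fold (adjusted p = 1.97e-12). MHC II-high dura was lower than MHC II-low dura by 0.56 ± 0.15 on the log2 scale (adjusted p = 0.0179), under the 2-fold limit.

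Per kilobase of exon, the levels in peritoneal macrophages were 1649 ± 103 CPM per kilobase for Cfp and 1391 ± 505 for C4b, near the 1729 ± 33.2 of C1qc, and 65.7 ± 24.7 for C3. In microglia the same quantities were 0.252 ± 0.093 for Cfp, 2.18 ± 1.90 for C4b and 0.396 ± 0.198 for C3, beside 2779 ± 274 for C1qc. Fibroblasts also make C3 and C4, so their markers were summed over 8 genes. The sums were 0 to 1.75 CPM in peritoneal macrophages, 328 to 1129 in choroid plexus, 175 to 345 in MHC II-high dura, 149 to 223 in MHC II-low dura and 8.13 to 139 in microglia. Dcn, Lum, Pdgfra and Col6a1 had no counts in any peritoneal library. The sum of 6 mesothelium markers was at most 0.109 CPM there. The part of fibroblast or mesothelium RNA in the levels of these genes was not tested in any population.

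**Figure D5:**
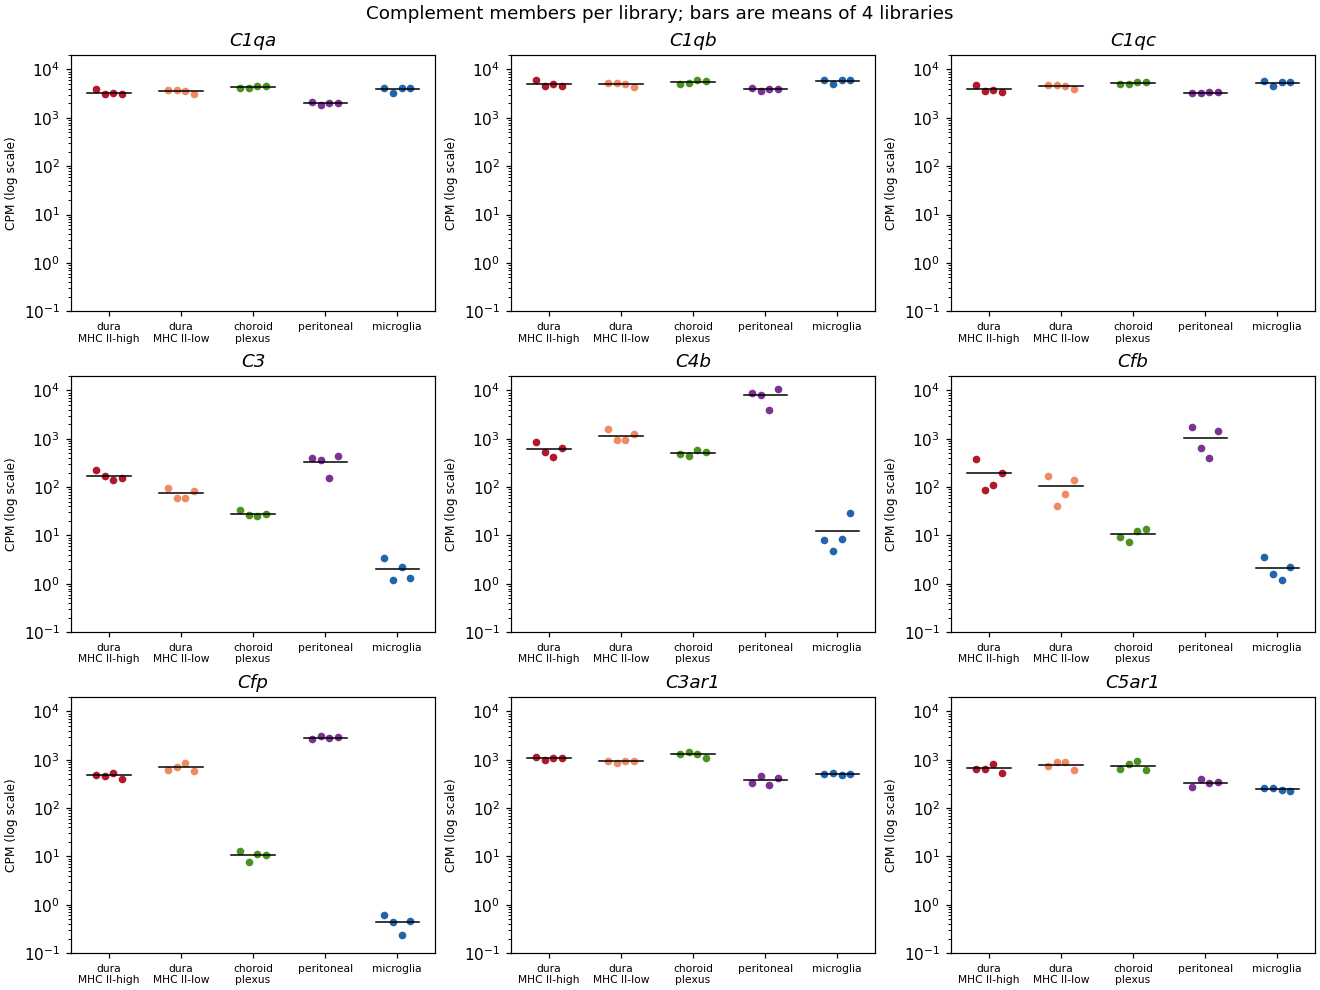
CPM of the 9 members on a log axis, 1 point per library and a bar at the mean of 4, for the 5 populations. The C1q panels lie between 1844 and 6176 CPM with peritoneal macrophages lowest, the C3, C4b, Cfb and Cfp panels fall from peritoneal macrophages to microglia, and the receptor panels show the dura and choroid plexus groups above the other 2.

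The anaphylatoxin receptors followed another order, with the border populations above microglia and peritoneal macrophages. C3ar1, the receptor for C3a, had 1310, 1425, 1342 and 1082 CPM in choroid plexus, 1147, 1005, 1078 and 1078 in MHC II-high dura, 962, 872, 921 and 943 in MHC II-low dura, 499.8, 532, 473 and 508 in microglia, and 333, 450.0, 294 and 425 in peritoneal macrophages. All 12 border libraries were above all 8 others. C3ar1 was called higher in each border population than in peritoneal macrophages (2.87-fold, 2.46-fold and 3.43-fold for MHC II-high dura, MHC II-low dura and choroid plexus) and higher in MHC II-high dura (2.14-fold, adjusted p = 1.2e-07) and choroid plexus (2.56-fold, adjusted p = 9.03e-09) than in microglia. The MHC II-low dura difference from microglia was 1.84-fold (adjusted p = 2.64e-06), under the limit. Choroid plexus and MHC II-high dura overlapped and did not pass the test (adjusted p = 0.101).

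C5ar1, the receptor for C5a, had 727, 889, 883 and 606 CPM in MHC II-low dura, 657, 831, 919 and 612 in choroid plexus, 645, 650.0, 808 and 544 in MHC II-high dura, 271, 399, 327 and 349.8 in peritoneal macrophages, and 261, 258, 241 and 223 in microglia. The 3 border populations overlapped, with adjusted p of 0.385 to 0.876 for their 3 comparisons without a block. For the dura pair that p was 0.391, and the blocked values are given above. They exceeded microglia 2.70-fold (MHC II-high dura), 3.16-fold (MHC II-low dura) and 3.08-fold (choroid plexus), with adjusted p of 1.85e-07, 2.51e-08 and 5.13e-08. MHC II-low dura and choroid plexus also exceeded peritoneal macrophages (2.31-fold and 2.24-fold). For MHC II-high dura against peritoneal macrophages the value was 0.98 ± 0.15, just under 2-fold, and it passed without MHC II-high dura library 4 (1.06) or peritoneal library 2 (1.06). Peritoneal macrophages, lowest in C3ar1, had more C5ar1 than microglia by 0.46 ± 0.15 on the log2 scale (adjusted p = 0.0125), also below 2-fold. The C5ar1 to C3ar1 count ratio was 0.908 ± 0.140 in peritoneal macrophages and 0.488 ± 0.037 in microglia, with no overlap. In MHC II-low dura it was 0.844 ± 0.175, overlapping the peritoneal range. Ratios in MHC II-high dura (0.616 ± 0.107) and choroid plexus (0.584 ± 0.076) overlapped the microglial range.

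The rest of the pathway was read from 42 further complement genes, all present in the files, of which 22 passed the filter on low counts and 16 reached a mean of 10 CPM in at least 1 population. Of the 22, in the comparison of MHC II-high with MHC II-low dura 2 were called higher in the first and 4 in the second, beside 2.39% and 1.48% of all genes. Against choroid plexus MHC II-high dura had 4 higher and 3 lower (4% and 5.87% of all genes) and MHC II-low dura 4 and 5 (4.18% and 8.63%). Against peritoneal macrophages MHC II-high dura had 10 higher and 6 lower (20.1% and 9.18% of all genes), MHC II-low dura 10 and 6 (20% and 11.9%), and choroid plexus 11 and 6 (24.1% and 12.6%). Against microglia MHC II-high dura had 10 higher and 4 lower (15.7% and 12.2% of all genes), MHC II-low dura 9 and 6 (13.8% and 12.7%), choroid plexus 8 and 2 (12.1% and 7.11%), and peritoneal macrophages 8 and 8 (18.9% and 25.7%). These counts include microglia library 3. Without it, Clu (log2 fold change −0.44, adjusted p = 0.65) and Cd59a (−1.21, 0.0782) lost their calls for MHC II-high dura. Cd59a also lost its call for MHC II-low dura (0.29, 0.694) and peritoneal macrophages (0.34, 0.605). Cd55 gained a call for peritoneal macrophages (2.80, 9.08e-05), and the gains for choroid plexus are given below. The median log2 fold change of the 22 ran from −0.02 to 1.45 over the 10 comparisons, beside −0.11 to 0.13 for all genes. No gene of the membrane attack complex reached a mean of 10 CPM in any population. C6 came closest, with a mean of 7.84 CPM in MHC II-low dura and up to 11.9 CPM in a single library of MHC II-high dura. It was called in 6 of the 10 comparisons. Mbl1, Mbl2, Cfd, C8a, C8b, C9 and C4bp had no count in any of the 20 libraries.

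Among initiators, Fcna, which encodes the lectin-pathway sensor ficolin-A, averaged 1583 ± 189 CPM in peritoneal macrophages, 167 ± 38.4 in MHC II-low dura, 48.0 ± 12.1 in MHC II-high dura, 1.89 ± 1.21 in choroid plexus and 0.139 ± 0.204 in microglia. That is the Cfp order, and the dura step was called here (−1.80 ± 0.32, MHC II-high minus low, adjusted p = 0.00127). Colec12, a membrane collectin, was highest in MHC II-low dura at 351 ± 40.9 CPM, against 76.8 ± 16.1 in MHC II-high dura, 63.1 ± 24.9 in choroid plexus, 112 ± 39.0 in peritoneal macrophages and 10.1 ± 5.48 in microglia. C1ra, which encodes the C1r protease of the C1 complex, averaged 58.9 ± 10.6 CPM in peritoneal macrophages, 17.3 ± 5.68 to 27.4 ± 4.80 in the border populations and 4.14 ± 0.88 in microglia.

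Among regulators, Cr1l (Crry), a membrane inhibitor of C3 convertases, was called in no comparison, at 86.2 ± 7.29 to 145 ± 24.9 CPM. Cd55, the decay-accelerating factor, averaged 108 ± 16.1 CPM in MHC II-low dura, 28.3 ± 8.69 in MHC II-high dura, 3.34 ± 1.10 in choroid plexus and 2.70 ± 0.75 in peritoneal macrophages. Its dura difference (−1.93 ± 0.68) had an adjusted p of 0.081 over all libraries, of 0.0317 without microglia library 1 and of 8.54e-05 without microglia library 3. In that library Cd55 stood at 11.0 CPM against 0 to 0.637 in the other microglia, Cd59a at 44.5 against 1.00 to 2.49, Serping1 at 17.7 against 0.991 to 3.30, and Clu at 670 against 7.15 to 36.6. The choroid plexus epithelium sum of 20595 CPM is in the same library, and its part in these values was not tested. Choroid plexus macrophages themselves held 4040 to 7624 CPM of that sum, with Clu, which encodes the regulator clusterin, at 180 ± 41.0 CPM and Serping1, the C1 inhibitor gene, at 89.9 ± 61.9. Without microglia library 3, Clu, Cd55 and Cd59a were called higher in choroid plexus than in microglia (log2 fold changes 3.02, 3.07 and 2.74). With it they were not (−0.03, 0.13 and −0.16). Clu and Vtn, the vitronectin gene, had no counts in peritoneal macrophages. Vtn averaged 11.0 ± 6.79 CPM in MHC II-high dura, 2.92 ± 0.84 in MHC II-low dura, 5.59 in choroid plexus and 11.0 ± 3.51 in microglia, and between the dura groups it was called higher in MHC II-high (1.91 ± 0.39, adjusted p = 0.00371).

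Among receptors for bound fragments, Itgam and Itgb2, whose products pair as complement receptor CR3, were highest in peritoneal macrophages at 4520 ± 860 and 3579 ± 423 CPM. Itgam averaged 1445 ± 282 CPM in microglia and 313 ± 40.4 to 487 ± 38.0 in the border populations, and was called lower in each border population than in microglia. Itgb2 averaged 639 ± 85.7 in microglia and 379 ± 34.8 to 498 ± 51.8 in the border populations, differences under 2-fold. In GENCODE M21, 68.7% of the exon length of Itgam is shared with the same-strand model Gm49368. Itgax, the alpha chain of CR4, was highest in MHC II-high dura at 36.7 ± 13.1 CPM and lowest in peritoneal macrophages at 0.715 ± 0.544. Vsig4, which encodes the C3b receptor CRIg, averaged 479 ± 42.9 CPM in peritoneal macrophages, 9.81 ± 2.58 in MHC II-low dura and 2.63 ± 2.00 in MHC II-high dura. It had 9 counts in the choroid plexus libraries, all in library 4, and none in microglia, where 3 counts in a library correspond to 0.174 to 0.198 CPM. C5ar2, a second receptor for C5a, was lowest in peritoneal macrophages, where Vsig4 was highest, at 2.71 ± 0.21 CPM (−4.57 ± 0.15 for peritoneal minus microglia, adjusted p = 1.31e-15). It averaged 64.6 ± 13.5 CPM in microglia and 42.8 ± 2.54 to 45.1 ± 5.55 in the border populations. Cd93, first described as a C1q receptor, averaged 105 ± 9.99 to 204 ± 22.2 CPM in the border populations, 135 ± 25.8 in peritoneal macrophages and 6.13 ± 4.59 in microglia.

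The genes most like each member were those with the highest Pearson r of log2(CPM + 1) with it over the 20 libraries, among 8002 genes. The points share library and depth, and the 5 populations set most of each r, so these are descriptions. C3 was most like Anxa4 (0.99), Gm21188 (0.98) and Il2rg (0.98), C4b most like Msr1 (0.98), March2 (0.97) and Rab3d (0.97), Cfb most like Tep1 (0.98), Epb4.1l1 (0.97) and Ahnak (0.97), and Cfp most like Nxpe5 (0.98), Timd4 (0.98) and Wdr3 (0.97). C3ar1 was most like Tmem176b (0.98), Zmynd15 (0.97) and Tmem176a (0.97), and C5ar1 most like Ahr, B4galt6 and Necap1 (0.95 each). For the C1q chains the closest were Adrb1 (0.97), Mapk3 (0.96) and Bcl2l1 (0.96) for C1qa, Usf1 (0.91), Lap3 (0.90) and Rnf34 (0.89) for C1qb, and Zdhhc8 (0.94), Irf2bp1 (0.93) and Git1 (0.93) for C1qc.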

How the data were processed

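Total RNA of 20 macrophage libraries was sequenced. The submitters' processing notes name the mm10 build and TopHat2 2.1.0, SAMtools 0.1.18, Trimmomatic 0.38 and FastQC 0.11.4. The sources used here name no counting program, annotation or strand setting. The authors deposited whole-number counts of reads per gene symbol, 24421 genes and 5 lines for reads given to no gene, which were left out (no feature 5.67 to 13.1%, ambiguous 0.836 to 1.51% of counted reads). A count of 0 allows up to 3 counts (0.0964 to 0.222 CPM), for counting error only.

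One model of the 20 libraries was fitted with edgeR 4.0.16 (R 4.3.3; filterByExpr, TMM, robust quasi-likelihood F test, 15 residual degrees of freedom), adjusted by Benjamini-Hochberg over 13960 genes. A standard error is the absolute log2 fold change divided by √F. Alternatives used DESeq2 1.42.0 and limma 3.58.1. The fitting script was tested on simulated data for MHC II-high against MHC II-low dura, with changes given to genes drawn from all those tested. Of the 2-fold changes 52.6% were found at an adjusted p under 0.05, and of the 4-fold changes 72.2%. A gene that is not called is thus not shown to be equal.

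Members and lists were chosen with earlier results of these data known. Named were all members, other complement genes at 10 CPM or more in a population, and the 3 genes most like each member (20 CPM or more). 1 further complement gene is not reported here. The motifs were chosen after the expression values were seen, the C/EBP motif after the other 6 had been searched. Libraries of a population differed by more than sampling noise (chi-square per degree of freedom 9.67 or more). Replicate numbers come from the titles. Same-numbered libraries of the dura groups deviated together in all 4 pairs (r 0.145 to 0.173, each over 0.1), and in no other comparison did all pairs.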

Additional observations from a re-analysis of the deposited data

Results flagged for a closer look

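Of 122 sets of 4 libraries checked for a library far from the rest, 13 had one, where chance gives about 1 in 20. Microglia library 3 was low in all C1q chains: C1qa at 3320 CPM against 4089 to 4177 in the others, C1qb at 4910 against 5919 to 6090, and C1qc at 4573 against 5581 to 5672. The same library was high in Clu (670 CPM against 7.15 to 36.6), Cd59a (44.5 against 1.00 to 2.49), Cd55 (11.0 against 0 to 0.637), Serping1 (17.7 against 0.991 to 3.30) and Colec12 (18.2 against 6.61 to 8.45). It is the library with 20595 CPM of choroid plexus epithelium markers. Microglia library 5, the one with the high interferon sum, held 28.5 CPM of C4b against 4.69 to 8.57. C2 was 78.2 CPM in MHC II-high dura library 1 against 47.8 to 51.6, and Cr1l was 97.0 CPM in MHC II-high dura library 3 against 81.6 to 83.9. Vtn was 7.83 CPM in choroid plexus library 1 against 4.68 to 4.96, and Vsig4 was 0.572 CPM in choroid plexus library 4 against 0 in the other 3.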

How the results depend on the processing

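In all, 2729 log2 fold changes of members were compared, under 12 alternatives, with each of 20 libraries left out, and in the blocked fit of the dura libraries alone. The alternatives that sum Cfb with C2 or C4b with C4a cover only Cfb or C4b. Of these values, 2690 kept their side of the call, 11 lost it, 28 gained it and 0 that were called changed direction. Sign changes of values called in neither fit are counted as kept. The 46 calls of members became 45 to 48 under the refits that kept the 2-fold limit, 44 with Cfb and C2 summed, and 66 with no minimum fold (2, 5, 8 and 9 members for MHC II-high dura against MHC II-low dura, choroid plexus and peritoneal macrophages, and for peritoneal macrophages against microglia). With no minimum fold the calls over all genes were 1530 between the dura groups, 3666, 7581 and 7465 for MHC II-high dura against choroid plexus, peritoneal macrophages and microglia, 4073, 8036 and 7123 for MHC II-low dura against the same, 8762 and 5914 for choroid plexus against peritoneal macrophages and microglia, and 9669 for peritoneal macrophages against microglia. With only genes of 10 CPM or more, fewer genes were tested, and the calls were 789, 2564, 1027, 2941, 2436, 3133 and 4069 for MHC II-high dura against choroid plexus and peritoneal macrophages, MHC II-low dura against choroid plexus, peritoneal macrophages and microglia, choroid plexus against peritoneal macrophages, and peritoneal macrophages against microglia. Leaving out each library in turn gave ranges of −3.05 to 0.29, −0.58 to 2.74 and −3.02 to 0.34 for Cd59a in MHC II-low dura, choroid plexus and peritoneal macrophages against microglia, of −0.45 to 3.02 for Clu in choroid plexus against microglia, and of −0.58 to 2.80 for Cd55 in peritoneal macrophages against microglia. The highest value in each, of opposite sign to that of all libraries, was the one without microglia library 3. Without microglia libraries 3 and 5 the same log2 fold changes were 0.12, 2.57, 0.17, 2.95 and 2.96. The replicate block changed no call of a member (46 in all), and for MHC II-high against MHC II-low dura it left 1 member called, also in the dura libraries alone, where 593 genes were called against 541. Both that fit and the one without microglia libraries 3 and 5 (47 calls of members) were chosen after seeing the data. Shifts of the median of all genes over 0.1 were −0.10 with DESeq2 for MHC II-low dura against microglia, −0.11 with genes of 10 CPM or more for choroid plexus against peritoneal macrophages, and −0.11 and 0.10 in fits of only the 2 groups for choroid plexus and peritoneal macrophages against microglia. In limma voom 26.4% of genes called between MHC II-high dura and choroid plexus were higher in the former, against 40.5% in edgeR, and the cause was not tested. Depth limits Cfp in microglia, which rests on 4 to 10 counts a library.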
